A study of Homo sapiens with 4 samples.

Results

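The kinetochore is the protein machine that joins each chromosome to the spindle, and 39 genes of it were followed across 4 RNA-seq libraries of MDA-MB-468 mammospheres. The genes were taken by name as members of 10 complexes or groups: the CENP-A nucleosome and its deposition factors, the constitutive centromere-associated network, the MIS12, KNL1, NDC80, SKA and RZZ complexes, the corona proteins CENP-E and CENP-F, the spindle checkpoint and the shugoshins. All 39 were found among the 26475 genes of the count tables, and all 39 were among the 15204 genes that had at least 10 reads in at least 1 library. MDA-MB-468 is a human triple-negative breast cancer cell line, and mammospheres are the floating spheres that such cells form without attachment, here after 7 days in ultra-low attachment plates. Cas9 was present in all cells, and doxycycline (dox) switched on the guide RNA. The 4 conditions were a pool with a control guide without doxycycline (CTL) and with it (CTL+dox), and a pool with guide 2 against TCOF1 without doxycycline (gRNA2, given as wild type) and with it (gRNA2+dox, the TCOF1 knockout). TCOF1 encodes treacle, a nucleolar protein of ribosomal RNA synthesis. Each condition is 1 library, of 6 to 7 plates, from sorted pools rather than single clones, so the spread between cultures is unknown and no p-value could be given.

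As background, centromeres are marked by nucleosomes that hold the histone H3 variant CENP-A, on which an inner network of CENP proteins sits through the whole cell cycle. In mitosis the MIS12, KNL1 and NDC80 complexes assemble on this base and bind microtubules, while checkpoint kinases at unattached kinetochores hold back anaphase. Most genes of the outer kinetochore and the checkpoint are transcribed mainly in G2 phase and mitosis, so their mRNA is high in dividing cells, and high levels of such proliferation genes are a known feature of basal-like breast cancer.

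Reads counted on genes numbered 19960644 in CTL and 22467410 in CTL+dox, against 26322847 in gRNA2 and 22168624 in gRNA2+dox. Levels are given as CPM (reads per 1000000 reads after TMM scaling), and differences as log2 ratios of 2 libraries with an exact 95% interval from the read counts. Such an interval holds the error of counting reads in a pair of libraries and says nothing of the spread between cultures. Calls of lower or higher needed a log2 ratio of at least 0.32 in size (20% below or 25% above) and an interval that left out 0. TCOF1 had 1019 reads (50.4 CPM) in CTL and 754 (33.5 CPM) in CTL+dox, against 1318 (50.1 CPM) in gRNA2 and 437 (20.02 CPM) in gRNA2+dox. The log2 ratio of TCOF1 in gRNA2+dox was -1.32 (-1.48 to -1.17) against gRNA2 and -0.74 (-0.92 to -0.57) against CTL+dox. For doxycycline in CTL cells it was -0.59 (-0.73 to -0.45), so TCOF1 was also called lower in the doxycycline-treated control library. The guide's target and adjoining PAM, shown because it defines the knockout library, lies on the minus strand of hg19 at chr5:149754959-149754981, in coding exon 11 of TCOF1, with the PAM in capitals.
TCOF1 gRNA2 target: gggccggcgcctttccccaaGGG
The keratins KRT5 and KRT17 and the receptor EGFR, which mark basal-like carcinoma cells, were abundant, with 54707 reads or more in each library. They come from a list of 11 epithelial and basal-like markers. In it the luminal keratins KRT19, with 60108 to 82015 reads, and KRT8, with 23423 to 32274, were abundant too. The oestrogen receptor gene ESR1 had 4 to 13 reads and PGR 0 to 7. Of the 10 white blood cell markers, 6 had at most 3 reads in every library, and the T-cell gene CD3D was at 0, while CD14, CD68, CSF1R and LCP1 had 199 to 3036 reads. The summed level of the 8 fibroblast and endothelial markers was 20.003 to 26.4 CPM, and the endothelial CDH5 was at 0. Most of that sum was COL1A1, with 358 to 543 reads, and PDGFRA had 35 and 47 reads in the control pool, without and with doxycycline, and 87 and 88 in the gRNA2 pool. Of the 5 tested markers of this list, both of these were called higher against CTL+dox, and their part in the results was not tested.

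The kinetochore genes were expressed at low to moderate levels. Mean levels over the 4 libraries ran from 0.880 CPM for SPC24 to 103 CPM for BUB3, with a median of 8.35 CPM. The member with the fewest reads, SPC24, had 14 in gRNA2+dox, well above the floor of 3 reads. Levels were also divided by exon length, taken as the union of all annotated exons of a gene. This allows only a rough comparison between genes, as the length of the transcripts in use was not known. Per kilobase of exon, ZW10 was the highest at 17.5 CPM per kb (16.6 to 18.7 over the libraries). SKA2 followed at 15.01 (14.2 to 16.9), BUB3 at 12.6 (11.8 to 13.2), DSN1 at 12.3 (11.8 to 12.9) and CENPN at 9.52 (8.80 to 10.2). In this order the ranges of SKA2 and ZW10 overlapped, as did those of BUB3 and DSN1, but not those of SKA2 and BUB3, and CENPN stood clear of ZWINT, the next gene, at 3.29 to 6.26 over the libraries. At the other end were CENPE at 0.408 CPM per kb, SGOL1 at 0.329, SPC24 at 0.310 and CENPP at 0.260. Among the 4 NDC80 complex genes, NDC80 stood at 3.36 CPM per kb and SPC24 at 0.310, so transcripts of subunits that act in 1 complex were not at equal levels. For 13 members some exon bases are shared with another gene of the tables, and for OIP5 (92.5%, with NUSAP1 and OIP5-AS1), CENPP (39.9%), CENPO (31.6%) and PMF1 (23.3%) the shared part is over 20%, so their counts are uncertain.

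**Figure D1:**
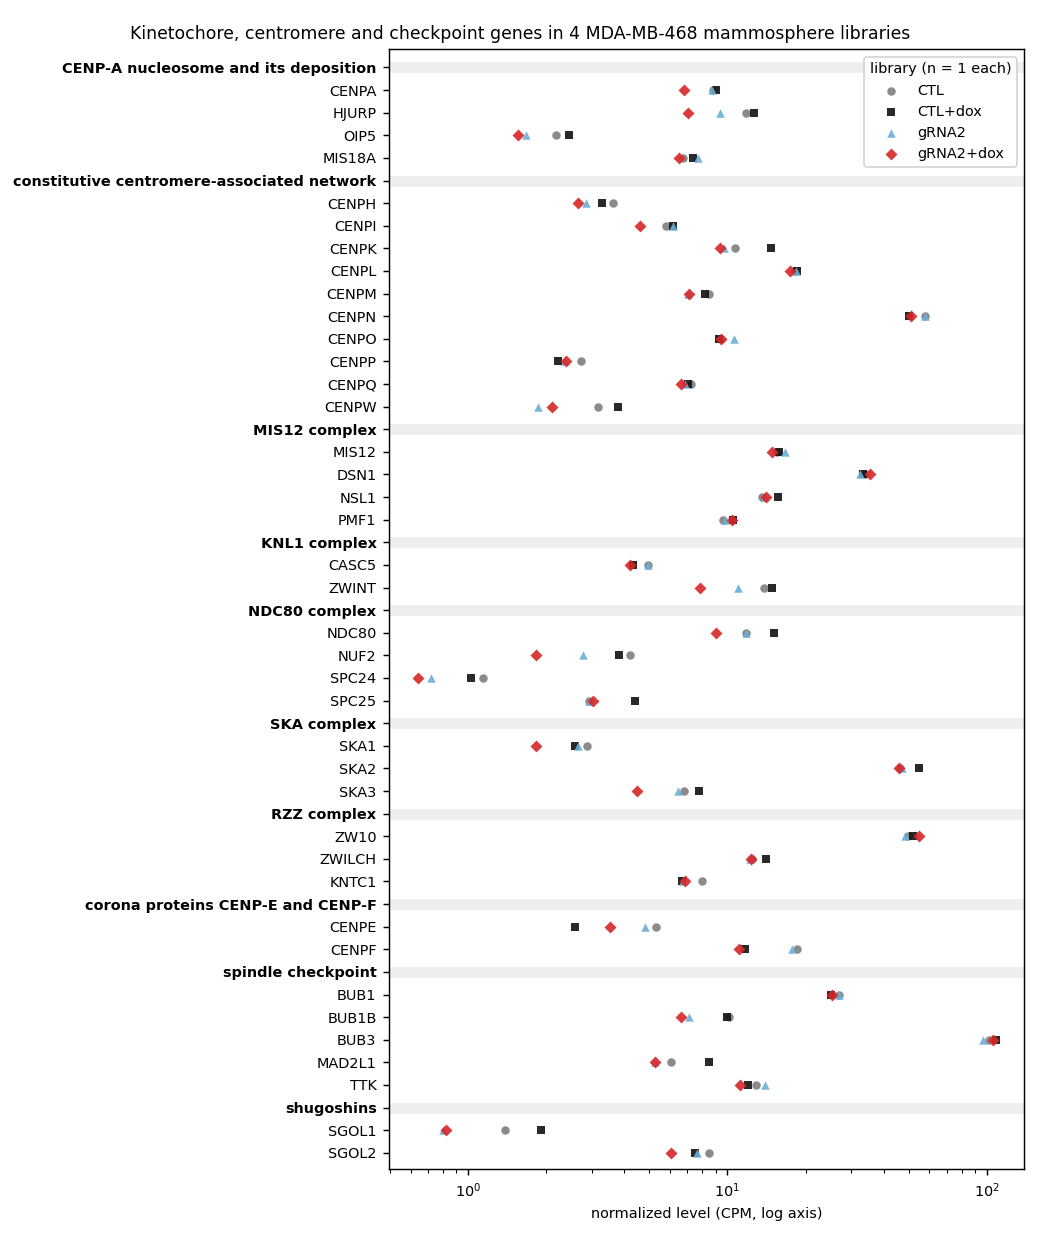
Level of each of the 39 genes in CPM (log axis), by complex, with 1 symbol for each of the 4 libraries and no error bars since each condition is 1 library. The red diamonds of gRNA2+dox are leftmost for 22 genes, by the widest gap for NUF2, while the MIS12 and RZZ complex genes keep their 4 symbols close together.

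Across the 39 genes, gRNA2+dox was most often the lowest library. It was lowest for 22 genes (56.4%), beside 25.7% of all tested genes. The lowest library was CTL for 3 members, CTL+dox for 6 and gRNA2 for 8, beside 20.2%, 29.3% and 24.7% of all tested genes. The highest library was CTL+dox for 18 members, CTL for 14, gRNA2 for 5 and gRNA2+dox for 2 (DSN1 and ZW10). For the highest library the shares of all tested genes were not computed. For 8 members, CENPA, HJURP, CENPI, ZWINT, NDC80, NUF2, SKA1 and SKA3, the level in gRNA2+dox lay at least 20% below each of the other 3 libraries, which is 20.5% of the members beside 5.21% of tested genes. Over the 22, the next lowest library had a median of 1.08 times the level in gRNA2+dox. The highest level was 1.06 to 2.40 times the lowest, with a median of 1.33 times. The summed level of all 39 was 586 CPM in CTL and 598 CPM in CTL+dox, against 562 CPM in gRNA2 and 538 CPM in gRNA2+dox. In bulk RNA, fewer dividing cells and less of these transcripts in each cell cannot be told apart.

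Against gRNA2, the same pool without doxycycline, 10 members were called lower in gRNA2+dox (25.6%, beside 4.73% of tested genes) and 0 higher (beside 4.03%). The median log2 ratio of the members was -0.10, with 26 of 39 below 0, and that of all tested genes was 0.00. Against CTL+dox, the control pool with doxycycline, 14 were called lower (35.9%, beside 8.43%) and 0 higher (beside 7.1%), with a median of -0.20 and 31 of 39 below 0. These comparisons share the gRNA2+dox library and are not independent. The pools also differed before the guide was switched on: 5 members (HJURP, CENPW, ZWINT, NUF2 and BUB1B) were lower in gRNA2 than in CTL (12.8%, beside 5.56%) and 0 higher (beside 3.45%), with a median of -0.07. In the control pool, doxycycline went with 2 lower calls (5.13%, beside 4.33%) and 4 higher calls (10.3%, beside 3.26%), with a median of 0.02. The part of each that lies in the difference between pools or in doxycycline itself was not tested. In all, 22 of the 39 genes were called in none of the 4 comparisons. The like share of all tested genes was not computed, so this count has no background beside it.

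**Figure D2:**
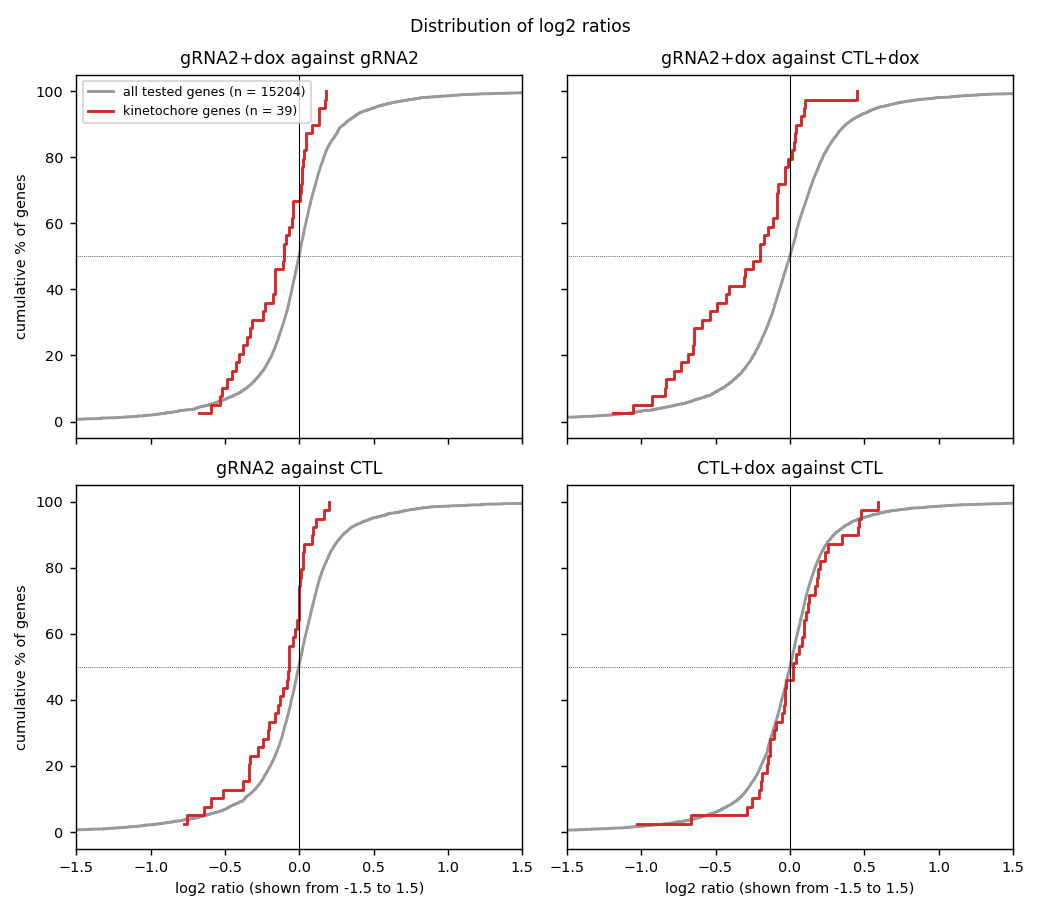
Cumulative percentage of genes against log2 ratio (shown from -1.5 to 1.5) in the 4 comparisons, for the 39 kinetochore genes (red) and all 15204 tested genes (grey). The red line lies left of the grey line over most of its length in both comparisons of gRNA2+dox, with medians of -0.10 and -0.20, and close to it for doxycycline in the control pool, with a median of 0.02.

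CENPA and its deposition factors were lowest in gRNA2+dox for 4 of 4 genes. CENPA, the centromeric histone itself, stood at 8.80 CPM in CTL and 9.07 in CTL+dox, against 8.70 in gRNA2 and 6.82 in gRNA2+dox. The first 3 libraries lay close together and gRNA2+dox lay below them, with log2 ratios of -0.35 (-0.66 to -0.05) against gRNA2 and -0.41 (-0.72 to -0.10) against CTL+dox. HJURP, the chaperone that loads CENP-A onto centromeres, stood at 11.8, 12.6, 9.34 and 7.05 CPM in the same order. Both libraries of the gRNA2 pool were below both of the control pool, and the log2 ratio was -0.40 (-0.71 to -0.11) against gRNA2, -0.84 (-1.13 to -0.55) against CTL+dox and -0.34 (-0.60 to -0.08) between the pools without doxycycline. OIP5 (Mis18-beta) and MIS18A help to license the centromere for new CENP-A. OIP5 had 44, 55, 44 and 34 reads and was called lower against CTL+dox alone, at -0.64 (-1.31 to -0.01), with most of its exon bases shared. MIS18A lay between 6.50 CPM in gRNA2+dox and 7.71 CPM in gRNA2 and was not called.

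The constitutive centromere-associated network builds the inner kinetochore on CENP-A. Of its 10 genes, 1 was called lower against gRNA2 (10%, beside 4.73% of tested genes). Against CTL+dox 3 were called lower (30%, beside 8.43%). CENPI, which with CENPH and CENPK forms a subcomplex of the network, stood at 5.78 CPM in CTL and 6.18 in CTL+dox, against 6.15 in gRNA2 and 4.58 in gRNA2+dox. Only gRNA2+dox departed from the others, with log2 ratios of -0.42 (-0.80 to -0.06) against gRNA2 and -0.43 (-0.82 to -0.05) against CTL+dox. CENPK behaved differently, at 10.7, 14.7, 9.68 and 9.39 CPM. Here CTL+dox was the library that stood apart, called higher than CTL at 0.46 (0.21 to 0.72), and gRNA2+dox was close to gRNA2 at -0.04 (-0.32 to 0.23) while called lower against CTL+dox at -0.65 (-0.91 to -0.39). CENPW, a histone-fold protein that pairs with CENP-T, followed the pool rather than doxycycline, with 64 reads in CTL and 85 in CTL+dox, against 49 in gRNA2 and 46 in gRNA2+dox. The log2 ratio was -0.76 (-1.33 to -0.21) between the pools without doxycycline, -0.84 (-1.39 to -0.31) against CTL+dox and 0.18 (-0.43 to 0.79) against gRNA2. The other 7 (CENPH, CENPL, CENPM, CENPN, CENPO, CENPP and CENPQ) were called nowhere. CENPL, at 17.5 to 18.5 CPM, varied least of all 39 genes. CENPN, which reads the CENP-A nucleosome, was measured most precisely of the network and had a log2 ratio of -0.18 (-0.29 to -0.06) against gRNA2 and -0.21 (-0.33 to -0.09) for doxycycline in CTL cells, both smaller than the limit for a call.

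In the outer kinetochore the complexes differed. The MIS12 complex (MIS12, DSN1, NSL1 and PMF1), the platform that links the inner and outer layers, had 0 calls in all 4 comparisons, and its summed level was 72.6 to 75.0 CPM over the libraries. DSN1 lay between 32.3 CPM in gRNA2 and 35.5 CPM in gRNA2+dox, where it was highest. In the KNL1 complex, CASC5 (KNL1), the scaffold that recruits BUB proteins, lay between 4.21 and 4.94 CPM with no call. Its partner ZWINT, which helps to bring the RZZ complex to kinetochores, stood at 13.8 CPM in CTL and 14.9 in CTL+dox, against 11.0 in gRNA2 and 7.83 in gRNA2+dox. ZWINT was thus lower in the gRNA2 pool and lowest with the guide on, with log2 ratios of -0.33 (-0.58 to -0.09) for gRNA2 against CTL, -0.49 (-0.77 to -0.21) against gRNA2 and -0.93 (-1.20 to -0.66) against CTL+dox.

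The NDC80 complex is the main microtubule receptor of the kinetochore, and its summed level was 20.1 CPM in CTL and 24.3 in CTL+dox, against 18.2 in gRNA2 and 14.6 in gRNA2+dox. NDC80, which carries the microtubule-binding head, stood at 11.8, 15.1, 11.8 and 9.07 CPM in that order. The libraries without doxycycline were alike, and doxycycline went with a higher level in CTL cells, at 0.35 (0.11 to 0.60), and a lower level in gRNA2 cells, at -0.38 (-0.65 to -0.12). Against CTL+dox the log2 ratio was -0.73 (-0.99 to -0.48). NUF2, its dimer partner, had 85 reads (4.20 CPM) in CTL and 86 (3.82) in CTL+dox, against 73 (2.77) in gRNA2 and 40 (1.83) in gRNA2+dox. Its level in gRNA2+dox was 66.1% of that in gRNA2 and 47.9% of that in CTL+dox, with log2 ratios of -0.59 (-1.19 to -0.02) and -1.05 (-1.64 to -0.50). NUF2 was also lower in gRNA2 than in CTL, at -0.60 (-1.07 to -0.13). SPC25, of the end that faces the chromosome, had 59, 99, 77 and 66 reads and was high in CTL+dox alone, at 0.59 (0.11 to 1.08) above CTL, so that gRNA2+dox was called lower against CTL+dox at -0.54 (-1.01 to -0.08). Its partner SPC24 had 14 to 23 reads, and its interval against gRNA2 ran from -1.28 to 0.90, so that a difference of the size of the limit was not detectable at this depth.

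The SKA complex stabilises the grip of NDC80 on microtubules. SKA3 stood at 6.77 CPM in CTL and 7.73 in CTL+dox, against 6.46 in gRNA2 and 4.49 in gRNA2+dox. Only gRNA2+dox was low, with log2 ratios of -0.52 (-0.90 to -0.16) against gRNA2 and -0.78 (-1.16 to -0.42) against CTL+dox. SKA1 had a log2 ratio of similar size against gRNA2, -0.53, from 58, 58, 70 and 40 reads, but its interval of -1.14 to 0.04 included 0. SKA2, with 938 to 1244 reads, lay between 45.9 and 54.6 CPM, with a log2 ratio of -0.04 (-0.16 to 0.08) against gRNA2.

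The RZZ complex (ZW10, ZWILCH and KNTC1), which carries dynein and MAD proteins to unattached kinetochores, had 0 calls in all 4 comparisons. ZW10, which also serves membrane traffic in interphase, was highest in gRNA2+dox at 54.6 CPM and lowest in gRNA2 at 48.3 CPM, a log2 ratio of 0.18 (0.06 to 0.29) that was under the limit. ZWILCH lay between 12.2 and 14.1 CPM and KNTC1 between 6.67 and 7.96 CPM.

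The corona proteins moved with doxycycline in both pools. CENPF, a large coiled-coil protein that accumulates up to mitosis, stood at 18.5 CPM in CTL and 11.7 in CTL+dox, against 17.7 in gRNA2 and 11.1 in gRNA2+dox. Both libraries with doxycycline were thus below both without it, and the log2 ratio for doxycycline was -0.66 (-0.90 to -0.43) in CTL cells and -0.67 (-0.91 to -0.45) in gRNA2 cells. CENPE, the kinesin that moves chromosomes towards the spindle equator, had 107, 58, 127 and 77 reads. Its lowest level was in CTL+dox, and the log2 ratio for doxycycline was -1.03 (-1.52 to -0.56) in CTL cells and -0.45 (-0.88 to -0.03) in gRNA2 cells. Against CTL+dox neither was called lower in gRNA2+dox, with log2 ratios of -0.08 (-0.33 to 0.18) for CENPF and 0.45 (-0.06 to 0.97) for CENPE.

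Among the 5 spindle checkpoint genes, 0 were called against gRNA2, beside 4.73% of tested genes lower and 4.03% higher. Against CTL+dox 2 were called lower (40%, beside 8.43%). BUB1B, the BubR1 subunit of the complex that restrains the anaphase-promoting complex, stood at 10.1 CPM in CTL and 9.96 in CTL+dox, against 7.10 in gRNA2 and 6.60 in gRNA2+dox. It separated the pools and not the doxycycline states, with log2 ratios of -0.51 (-0.81 to -0.22) for gRNA2 against CTL, -0.59 (-0.91 to -0.29) against CTL+dox and -0.11 (-0.43 to 0.21) against gRNA2. MAD2L1, which encodes the checkpoint protein MAD2, had 123, 191, 138 and 115 reads and was high in CTL+dox alone, at 0.48 (0.15 to 0.82) above CTL. Its log2 ratio was -0.69 (-1.04 to -0.35) against CTL+dox and 0.01 (-0.36 to 0.37) against gRNA2. The kinase BUB1 lay between 25.1 and 27.0 CPM in all libraries, with a log2 ratio of -0.09 (-0.26 to 0.07) against gRNA2. BUB3, the most abundant member, lay between 96.5 and 108 CPM. TTK, the MPS1 kinase at the head of the checkpoint, stood at 12.8, 12.0, 13.9 and 11.1 CPM, and its log2 ratio of -0.32 (-0.56 to -0.08) against gRNA2 was just short of the limit.

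The shugoshins protect cohesin at centromeres until anaphase. SGOL2 stood at 8.50 CPM in CTL and 7.47 in CTL+dox, against 7.60 in gRNA2 and 6.05 in gRNA2+dox, and its log2 ratio of -0.33 against gRNA2 was the called value nearest to the limit. SGOL1 had 28, 43, 21 and 18 reads. Both libraries of the gRNA2 pool were below both of the control pool, and gRNA2+dox was called lower against CTL+dox at -1.19 (-2.09 to -0.39), while against gRNA2 the interval ran from -0.95 to 1.03.

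**Figure D3:**
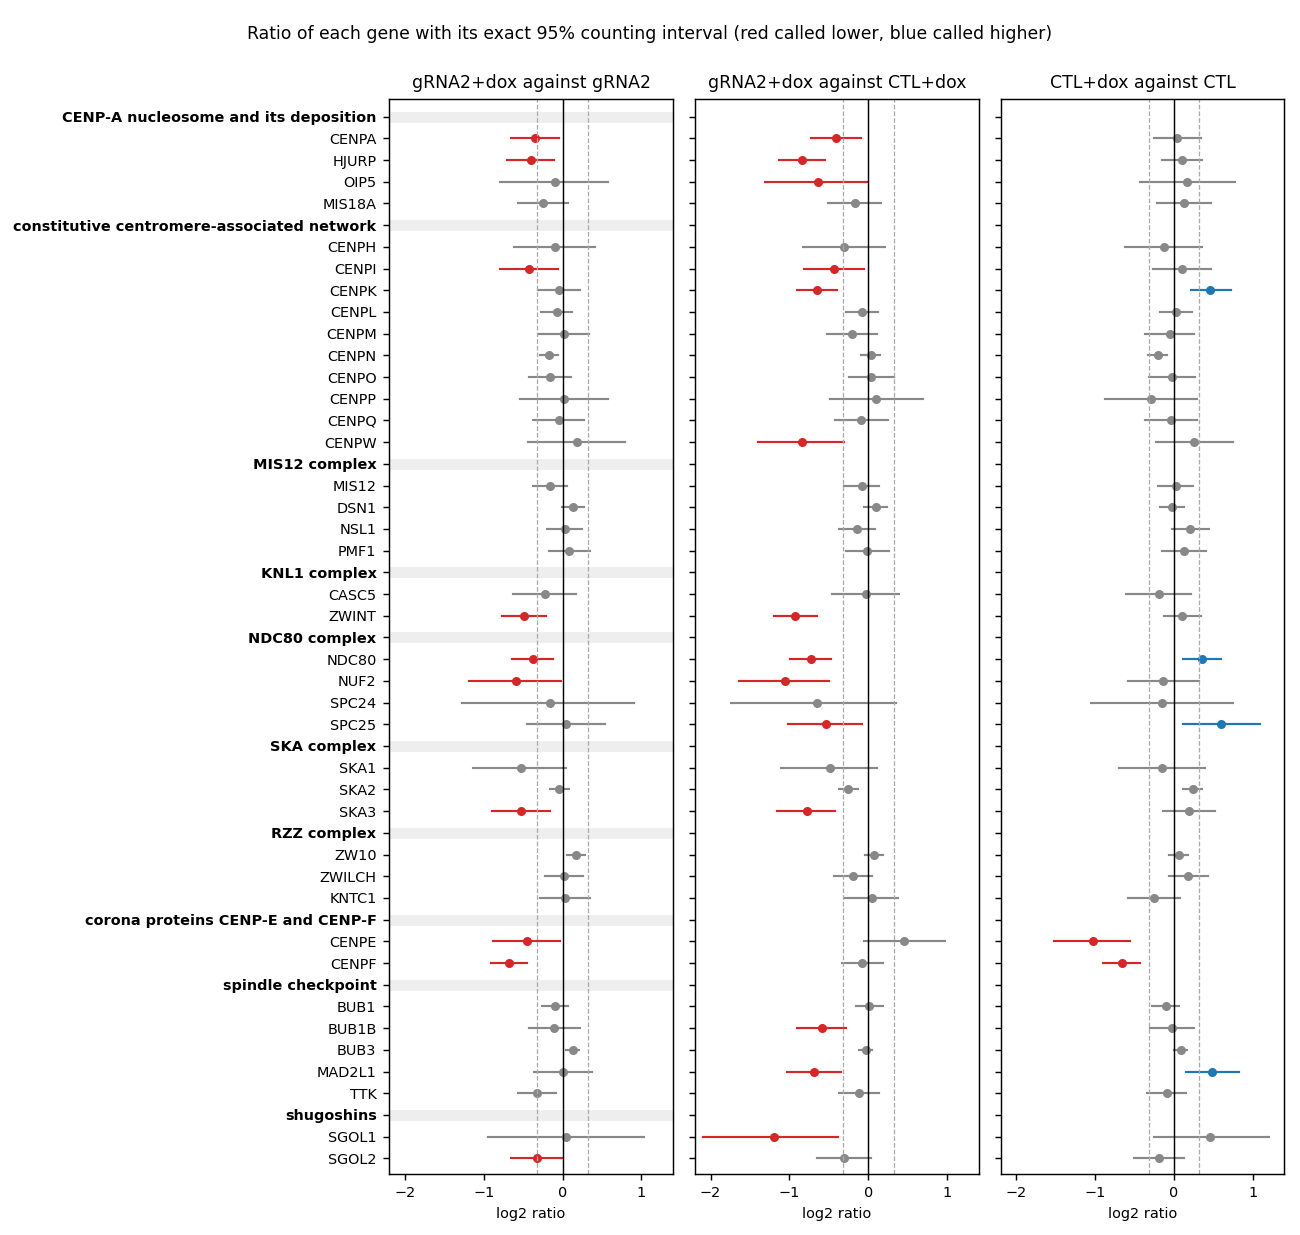
Log2 ratio of each gene with its exact 95% counting interval for gRNA2+dox against gRNA2, gRNA2+dox against CTL+dox and CTL+dox against CTL, with dashed lines at the limit of 0.32 for a call. Called genes are red (lower) or blue (higher): 10, 14 and 2 red points and 4 blue points, all blue ones in CTL+dox against CTL, and the MIS12 and RZZ complexes are grey throughout.

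The log2 ratio for doxycycline in gRNA2 cells minus that in CTL cells uses all 4 libraries, and a change in either pool moves it. It does not set the TCOF1 guide apart from other differences between the pools. Its median over the 39 genes was -0.14, with a range of -0.73 to 0.58. It was below 0 for 29 of 39 (74.4%), beside 49.2% of tested genes. The exact interval lay wholly below 0 for 6 members (15.4%), beside 11.7% of tested genes, and wholly above 0 for 0, beside 13.6%. The share with an interval below 0 was thus near that of all tested genes. NDC80 had the lowest value, -0.73 (-1.09 to -0.37), followed by SKA3 at -0.71 (-1.22 to -0.21) and ZWINT at -0.59 (-0.96 to -0.23). CENPI, at -0.52 (-1.05 to 0.01), and CENPA, at -0.39 (-0.82 to 0.04), had intervals that included 0. For NDC80 and CENPK the difference was made up in part, or for CENPK nearly all, by a higher level in CTL+dox than in CTL. CENPF had a difference of -0.01 (-0.34 to 0.32), and CENPE had the highest difference, 0.58 (-0.06 to 1.24). TCOF1 had -0.73 (-0.95 to -0.52) on the same scale.

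Genes that work beside the kinetochore were counted from lists that were chosen with earlier results of these data known. Over all tested genes, 4.73% were called lower against gRNA2, 8.43% against CTL+dox and 5.56% for gRNA2 against CTL. Of 21 tested genes of other kinetochore and centromere proteins, 1 was called lower against gRNA2 (4.76%, near the share of all tested genes). Against CTL+dox 5 were called lower (23.8%). In both comparisons 0 were called higher, and the medians were -0.11 and -0.16. In this list 5 of 21 were also lower in gRNA2 than in CTL, with a median of -0.12. The 1 was SPAG5 (astrin), which stabilises attached kinetochore fibres, at 11.0, 10.8, 9.53 and 7.42 CPM in CTL, CTL+dox, gRNA2 and gRNA2+dox. The chromosomal passenger complex and mitotic kinases, which correct wrong attachments and drive mitotic entry, had 3 of 10 lower against gRNA2 and 6 of 10 against CTL+dox, with medians of -0.26 and -0.63. In this list 5 of 10 were also lower in gRNA2 than in CTL, with a median of -0.31. PLK1, a kinase of kinetochores and spindle poles, stood at 25.6 CPM in CTL and 28.6 in CTL+dox, against 26.7 in gRNA2 and 17.0 in gRNA2+dox. Its first 3 levels were alike and the last was low, at a log2 ratio of -0.65 against gRNA2 and -0.75 against CTL+dox. CCNB2, a mitotic cyclin, had 13.1, 13.6, 9.65 and 7.51 CPM, and BIRC5 (survivin), which tethers the passenger complex to centromeres, had 15.6, 20.9, 13.6 and 10.9 CPM.

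The anaphase-promoting complex and its partners, which are the target of the checkpoint, gave 0 lower and 1 higher call of 19 against gRNA2, and 4 lower and 1 higher against CTL+dox. Cohesin, separase and securin gave 0 of 12 called against gRNA2 and 3 lower and 1 higher against CTL+dox. G1/S and replication genes, which peak before mitosis, had 2 of 20 lower against gRNA2 and 10 of 20 against CTL+dox, with medians of -0.14 and -0.28 and 0 called higher. Of these, UHRF1 stood at 25.2, 26.9, 24.5 and 19.1 CPM and GINS2 at 13.7, 15.6, 13.6 and 10.9 CPM. Regulators of cell cycle transcription (MuvB, MYB, FOXM1 and E2F genes) had 1 of 20 lower against gRNA2 (5%), and against CTL+dox 2 lower (10%) and 2 higher (10%). Over all tested genes, 4.73% and 8.43% were called lower and 4.03% and 7.10% higher in these comparisons. The shares of regulators called lower were thus near those of all tested genes. Of 15 genes whose level does not follow proliferation, 0 were called against gRNA2 and 1 was lower against CTL+dox, with medians of 0.07 and -0.12. For gRNA2 against CTL the lower calls were 2 in the anaphase-promoting complex list, 1 in the G1/S list and 1 in the regulator list. There were 0 in the cohesin list and the list that does not follow proliferation. Over all tested genes, 5.56% were called lower in that comparison.

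Many mitotic genes share promoter elements: the cell cycle genes homology region (CHR), which binds MuvB complexes, CCAAT boxes, which bind NF-Y, and E2F sites. RefSeq promoters of GRCh38.p14, with 250 bases before and 50 after the start site, were at hand for 31 of the 39 genes, with the most upstream start taken where several were listed. The others are MIS18A, CENPH, CENPL, CENPM, CASC5, KNTC1, BUB3 and TTK. Both strands were searched for CHR (TTTGAA or TTCGAA), for CCAAT and for E2F (TTTCCCGC, TTTCGCGC, TTTGCCGC or TTTGGCGC), and no matches of different motifs overlapped in the members. A CHR match was present in 18 of 31 promoters (58.1%), beside 16.7% of 27305 promoters of all genes. Within 50 bases of the start it was present in 16 of 31 (51.6%), beside 5.07%. CCAAT was present in 20 of 31 (64.5%, beside 35.7%), both CHR and CCAAT in 12 (38.7%, beside 6.63%) and E2F in 3 (9.68%, beside 3.34%). The promoters below are those of the 3 members with the lowest log2 ratio against gRNA2 (CENPF at -0.67, NUF2 at -0.59, SKA1 at -0.53) and of the member whose ratio in that comparison was nearest to 0 (MAD2L1 at 0.01), with every match of these motifs in capitals.
CENPF, chr1:214602945-214603244, plus strand: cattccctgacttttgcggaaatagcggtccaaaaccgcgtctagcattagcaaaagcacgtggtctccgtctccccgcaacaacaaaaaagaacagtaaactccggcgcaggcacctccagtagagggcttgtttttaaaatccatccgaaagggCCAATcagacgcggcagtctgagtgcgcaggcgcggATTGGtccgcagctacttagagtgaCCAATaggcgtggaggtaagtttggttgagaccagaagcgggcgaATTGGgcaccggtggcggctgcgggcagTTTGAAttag
NUF2, chr1:163321704-163322003, plus strand: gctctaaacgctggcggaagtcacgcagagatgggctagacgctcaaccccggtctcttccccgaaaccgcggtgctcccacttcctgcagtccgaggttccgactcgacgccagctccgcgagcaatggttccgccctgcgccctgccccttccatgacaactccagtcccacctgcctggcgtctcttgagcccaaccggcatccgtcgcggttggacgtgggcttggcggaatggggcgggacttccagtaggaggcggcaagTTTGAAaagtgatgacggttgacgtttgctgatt
SKA1, chr18:50374796-50375095, plus strand: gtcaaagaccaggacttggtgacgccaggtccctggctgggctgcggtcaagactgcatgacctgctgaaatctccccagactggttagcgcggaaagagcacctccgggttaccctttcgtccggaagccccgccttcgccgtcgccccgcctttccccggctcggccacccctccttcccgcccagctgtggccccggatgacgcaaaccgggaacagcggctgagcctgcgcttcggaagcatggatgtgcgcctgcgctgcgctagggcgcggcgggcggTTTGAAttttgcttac
MAD2L1, chr4:120066799-120067098, minus strand: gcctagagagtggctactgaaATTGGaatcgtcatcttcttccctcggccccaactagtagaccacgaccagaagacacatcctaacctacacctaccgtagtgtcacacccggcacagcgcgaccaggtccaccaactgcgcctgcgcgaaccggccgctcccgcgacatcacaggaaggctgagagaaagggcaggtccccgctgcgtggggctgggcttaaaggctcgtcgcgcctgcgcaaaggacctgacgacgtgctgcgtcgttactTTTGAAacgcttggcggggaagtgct
All 4 hold 1 CHR match after the start site, at base 41 in CENPF, 17 in NUF2, 35 in SKA1 and 25 in MAD2L1, where the start site is base 1. CENPF holds 4 CCAAT matches and MAD2L1 holds 1, while NUF2 and SKA1 hold 0, and none of the 4 holds an E2F match.

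As a description, the 18 members with a CHR match had a median log2 ratio of -0.17 against gRNA2, with 7 called lower, and the 13 without had -0.04, with 3 called lower. Against CTL+dox the medians were -0.62, with 12 called lower, and -0.15, with 2 called lower. For gRNA2 against CTL the medians were -0.09 and -0.07, and the calls were 5 lower with a match and 0 without. The 5 members called between the pools without doxycycline thus all hold a CHR match. Over all tested genes with a promoter the shares called lower there were close, 5.94% with a CHR match and 5.21% without. With the match within 50 bases of the start they were 7.90% and 5.20%. For doxycycline in CTL cells the medians were 0.08 and 0.02, with 1 lower and 3 higher calls with a match and 1 of each without. Over all tested genes with a promoter, 3.56% with a CHR match and 4.27% without were called lower in this comparison. Called higher were 48 of 1263 with a match and 301 of 9870 without. The split by CCAAT ran the other way against gRNA2: the 20 members with a match had a median of -0.07, with 5 called lower, and the 11 without had -0.38, with 5 called lower. Against CTL+dox these medians were -0.36 and -0.43, with 9 and 5 called lower. For CCAAT, the shares of all tested genes with a promoter called lower were close with and without a match. They were 4.49% and 4.53% against gRNA2, and 8.09% and 8.20% against CTL+dox. Over all tested genes with a promoter, 6.25% of the 1263 with a CHR match were called lower against gRNA2, beside 4.30% of the 9870 without, and 12.0% and 7.67% against CTL+dox. With the match within 50 bases of the start, the shares were 8.99% of 367 and 4.37% of 10766 against gRNA2, and 16.6% and 7.87% against CTL+dox. CENPE and CENPI, both called lower against gRNA2, have no match of any of the 3 motifs in this window. A match of these letters is not evidence of binding.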

How the data were processed

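RNA-seq was done on 4 MDA-MB-468 mammosphere libraries, 1 for each condition. Per the paper's methods and the labels, reads were trimmed with fastp and aligned with STAR to hg38. The annotation is not given in the sources used here. The deposited values are raw counts that STAR made for each gene. The unstranded column was used: 49.0% to 49.1% of reads fell on 1 strand, so strand cannot be told apart. A read counts only where it maps to 1 place, and reads on overlapping genes are set aside (2.09% to 2.17% of reads). Reads on genes were 79.7% to 81.0% of the total.

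Counts were scaled by TMM in edgeR 4.0.16 (R 4.3.3), with factors of 0.985 to 1.01. Genes with at least 10 reads in at least 1 library were used. Log2 ratios had a prior count of 0.5. Exact (Clopper-Pearson) 95% intervals of a pair of counts were computed with scipy 1.17.1 in Python 3.11.15. They were tested on simulated data that held counting error only. Exact conditional odds ratio intervals for the difference of ratios were computed with the same tools and were not tested on simulated data. The floor of 3 reads was 0.114 to 0.148 CPM. Intervals and the floor cover counting error only, as reads without molecular identifiers are not independent molecules. With 1 library per condition no test across cultures was made. Exon lengths came from GENCODE v44lift37.

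The genes, lists and motifs were chosen with earlier results of these data known. All 39 genes are named, with TCOF1. From other lists, genes called the same way against both gRNA2 and CTL+dox are named, at most 5 a list. The regulator, cohesin and anaphase lists had none. Alternatives were DESeq2 1.42.0 size factors, no scaling beyond total counts, thinning to the smallest total, other count minimums, a prior count of 5, a 1.5-fold limit, no fold limit, and 99% intervals.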

Additional observations from a re-analysis of the deposited data

Results flagged for a closer look

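In 6 genes the log2 ratio for doxycycline was lower in gRNA2 cells than in CTL cells, by an interval of the difference that left out 0. They are 15.4% of the 39, beside 11.7% of all tested genes, so the count is near the background. The differences were -0.73 for NDC80, -0.71 for SKA3, -0.59 for ZWINT, -0.51 for CENPK, -0.50 for HJURP and -0.28 for SKA2. For NDC80 the ratio was 0.35 in CTL cells and -0.38 in gRNA2 cells. For CENPK it was 0.46 and -0.04, and for SKA2 it was 0.24 and -0.04, so in both of these the larger change was in the control pool. For SKA3 (0.19 and -0.52), ZWINT (0.11 and -0.49) and HJURP (0.10 and -0.40) the larger change was in gRNA2 cells. The intervals hold counting error only, and the difference was not tested across cultures. TCOF1 was itself called lower in CTL+dox than in CTL, and the part of that in these values was not tested.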

How the results depend on the processing

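No called value changed sign under the alternatives, and 7 counts of called members moved by more than 1.5 times (shares of all tested genes under the same setting in brackets). With a 1.5-fold limit, 2 members were lower against gRNA2 (2.20%), 2 were lower in gRNA2 against CTL (2.75%) and 1 was higher in CTL+dox against CTL (1.39%). With 99% intervals, 5 were lower against gRNA2 (2.84%) and 3 in gRNA2 against CTL (3.44%). Without the filter on low counts, 3 were lower in gRNA2 against CTL (3.63%). Without a fold limit, 2 (ZW10 and BUB3) were higher against gRNA2 (15.8%). Each follows from the stricter or looser limit, except the filter, which changed the scaling. Against CTL+dox the count of lower members stayed between 11 and 15, while the share of all tested genes changed more. The count was 11 with a 1.5-fold limit (4.20%) and 15 without a fold limit (19.6%). The lowest library was gRNA2+dox for 21 to 26 members. The median log2 ratio ranged from -0.12 to -0.08 against gRNA2, from -0.23 to -0.20 against CTL+dox and from -0.09 to -0.04 for gRNA2 against CTL. Other scalings moved the median of all genes by at most 0.025. No paired analysis was possible because there is only 1 library in a condition, and none could be left out. Among values that were not called, 3 list medians, of at most 0.04 in size as reported, and 18 log2 ratios of single genes, of at most 0.07, changed sign under some setting. Depth limits 18 members, whose interval against gRNA2 was wider than 0.32 to each side, and most of all SPC24, SGOL1, OIP5, NUF2, SKA1, CENPH, CENPP and CENPW, with 14 to 86 reads.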
